A study of Mus musculus with 2 samples.

Results

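Genes of cholesterol and fatty acid synthesis were examined in mouse T cells activated with or without triptolide, a plant diterpenoid that binds a subunit of the general transcription factor TFIIH. Members were chosen by name: 33 genes in 3 branches, of the 18193 genes that the annotated array covers. They comprise 19 enzymes of sterol synthesis, 6 genes of the SREBP regulators with the sterol carrier Stard4, and 8 enzymes of fatty acid synthesis. The gene for the cytosolic thiolase Acat2 had no probe set annotated to it alone, so its signal was not analysed here and it enters only the promoter counts, and 32 genes with 72 probe sets remained.

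The triptolide group was primary mouse T cells given antibodies against CD3 and CD28 together with triptolide at 50 ng/ml. The other group was primary mouse T cells given the same antibodies alone. Both were purified cells kept in culture for 18 h, and each group was measured on 1 Affymetrix array. The sources used here do not give the strain, the age, the number of animals or the length of exposure to triptolide. With 1 array per group the differences have no replicate check and no test was possible, so signals, log2 ratios (triptolide over stimulated) and counts past a fixed 2-fold rule are given.

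Cells make cholesterol from acetyl-CoA through mevalonate, farnesyl diphosphate, squalene and lanosterol, and make fatty acids from the same acetyl-CoA through malonyl-CoA. Both routes are controlled by the SREBP transcription factors, which the protein Scap escorts from the endoplasmic reticulum when sterols are scarce and which the Insig proteins hold back when sterols are plentiful. Activated T cells are known to raise both routes, which supply membrane for growth and division.

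The promoters of these genes are shown first, because SREBPs are known to act there together with the factors NF-Y and Sp1. RefSeq windows (GRCm38.p6, from 250 bases before to 50 after a gene's start) were held for 26 of the 33 genes. No window was held for Fdps, Fdft1, Sqle, Stard4, Scd1, Scd2 and Fads1. Of these, Fdps, Fdft1, Scd1 and Scd2 were at least 2-fold lower with triptolide, so their promoters were not searched. These short motifs were searched on both strands: TCACNCCAC for a sterol regulatory element, CACGTG for an E-box, CCAAT for the NF-Y box and GGGCGG for the Sp1 box. The 200 bases before the start are printed 5′ to 3′ on the gene's strand, with matches to the first 3 motifs in capitals and Sp1 boxes left in lower case. Hmgcs1 and Mvd stand for members that were at least 2-fold lower with triptolide, and Idi1, Ebp, Insig1 and Fasn for members that were higher.
Hmgcs1 (chr13:119690151-119690350, plus strand): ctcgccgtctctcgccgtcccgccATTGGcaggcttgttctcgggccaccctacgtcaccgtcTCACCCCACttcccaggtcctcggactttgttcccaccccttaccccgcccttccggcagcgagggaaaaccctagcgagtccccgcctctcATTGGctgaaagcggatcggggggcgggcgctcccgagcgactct
Mvd (chr8:122443423-122443622, minus strand): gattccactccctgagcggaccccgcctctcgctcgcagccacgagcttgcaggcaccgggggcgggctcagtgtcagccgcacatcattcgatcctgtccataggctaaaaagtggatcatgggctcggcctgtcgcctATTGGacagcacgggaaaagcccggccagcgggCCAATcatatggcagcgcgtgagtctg
Idi1 (chr13:8885406-8885605, plus strand): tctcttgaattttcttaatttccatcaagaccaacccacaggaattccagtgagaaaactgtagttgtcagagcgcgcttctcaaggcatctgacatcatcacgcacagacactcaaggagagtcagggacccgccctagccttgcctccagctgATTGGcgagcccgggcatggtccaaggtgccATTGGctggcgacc
Ebp (chrX:8193513-8193712, minus strand): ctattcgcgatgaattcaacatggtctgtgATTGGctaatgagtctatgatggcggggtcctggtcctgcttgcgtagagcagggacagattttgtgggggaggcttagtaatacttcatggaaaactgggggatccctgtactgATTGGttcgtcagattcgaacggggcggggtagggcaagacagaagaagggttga
Insig1 (chr5:28071212-28071411, plus strand): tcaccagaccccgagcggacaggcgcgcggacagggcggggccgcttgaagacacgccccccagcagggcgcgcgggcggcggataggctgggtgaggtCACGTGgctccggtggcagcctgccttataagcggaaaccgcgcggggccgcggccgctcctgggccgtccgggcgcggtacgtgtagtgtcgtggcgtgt
Fasn (chr11:120824548-120824747, minus strand): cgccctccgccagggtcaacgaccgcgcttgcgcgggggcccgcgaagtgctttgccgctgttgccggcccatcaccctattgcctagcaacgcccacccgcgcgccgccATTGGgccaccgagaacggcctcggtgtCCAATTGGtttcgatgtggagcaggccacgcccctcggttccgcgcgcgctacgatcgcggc

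The only match to the sterol regulatory element letters among the 26 genes (3.85%) was in Hmgcs1, where it began at position -137 from the start. These letters are rare, matching 1.38% of detected genes with a window and 1.24% of all windows. Lack of a match means only that this exact pattern is absent from the window. The NF-Y box was found in 15 of 16 sterol enzyme genes (93.8%), 4 of 5 SREBP regulator genes (80%) and 2 of 5 fatty acid enzyme genes (40%). Over the 8839 detected genes with a window that share was 42.6%, and over all 32851 windows of this length it was 37.4%. Some genes carried several copies: Mvk had 5, and Hmgcs1 and Nsdhl had 4 each. The E-box was found in 6 of the 26 genes (23.1%; Hsd17b7, Sc5d, Dhcr7, Insig1, Scap and Elovl5), against 12% of detected genes, and in 7.15% of all windows. The Sp1 box was found in 20 of the 26 (76.9%), against 67.4% of detected genes, and in 35.7% of all windows.

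The NF-Y box was present in 4 of the 5 windowed members that were at least 2-fold lower, and also in 5 of the 5 whose brightest probe set had a ratio above 0. These 5 include Hsd17b7, whose probe sets disagree in direction. In the printed stretches Mvd, Idi1, Ebp and Fasn each have 2 or more boxes. In Fasn 2 of the 3 boxes overlap on opposite strands. A match is a run of letters and not a measured binding site, and these shares were not tested.

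**Figure D1:**
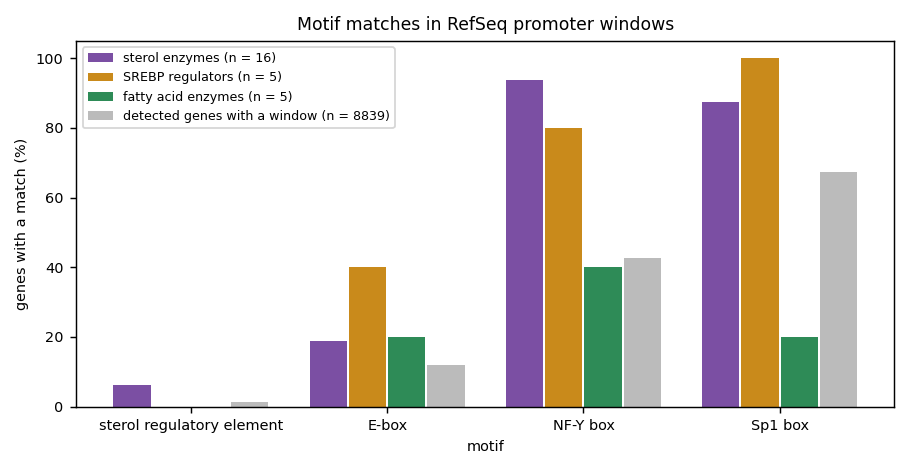
Percentage of genes whose RefSeq promoter window holds each motif (y axis, bars from 0) for the sterol enzymes, the SREBP regulators, the fatty acid enzymes and all detected genes. The NF-Y box was found in 93.8% of the sterol enzyme genes and in 42.6% of detected genes.

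Signals above 118 were taken as above background, the higher of both arrays' 95th percentiles over chemosensory receptor probe sets. All 32 members passed this floor on at least 1 array, and 30 passed it on both. Fads1 and Fads2 lay under it with triptolide. Across the arrays 10883 genes were detected, with a median log2 ratio of -0.16. Of 11 listed T cell markers 10 were detected on both arrays, from Thy1 (10065 with triptolide, 14194 without) to Cd4 (400 with triptolide, 972 without). The lowest ratios were those of Cd8a, Cd2 and Cd4, which were 3.03-fold, 2.54-fold and 2.43-fold lower. Cd8a probe sets disagreed, with log2 ratios from -1.61 to 0.17. Cd3d was at -0.23, and Cd3e and Cd3g were higher with triptolide, at 0.46 and 0.18. In bulk RNA, fewer cells of a type and less RNA per cell cannot be told apart.

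Most of the genes were lower with triptolide, and none was at least 2-fold higher. Of the 32, 9 were at least 2-fold lower, against 12.3% of all detected genes, which makes 28.1% of the members. Of all detected genes 5.6% were at least 2-fold higher. A ratio below 0 was seen in 27 of the 32 (84.4%), against 60.2% of detected genes. The members' median log2 ratio was -0.64. Relative to the median of all detected genes that is a difference of -0.48. This difference was -0.45, -0.45 and -0.46 when the arrays were centred on their medians, quantile normalized or set to equal trimmed means. The members' median thus lay below that of all genes under these scalings, and 2 fewer members passed 2-fold in 2 of the 3. After centring, 7 of 32 members were at least 2-fold lower, against 7.82% of detected genes, and 1 (Fasn) was at least 2-fold higher, against 8.48%. After quantile normalization 9 were lower, against 8.33%, and 1 was higher, against 8.05%. With equal trimmed means 7 were lower, against 8.91%, and 1 was higher, against 7.62%. Ratios below 0 made up 47.4%, 49.6% and 50.5% of detected genes under these 3 scalings, against 26, 27 and 27 of the 32 members. The medians of the branches were -0.67 for the sterol enzymes, -0.58 for the regulators with Stard4 and -0.64 for the fatty acid enzymes. The fatty acid median falls between Fads1 and Fads2, whose ratios are bounds set by the floor. Over the 6 fatty acid genes above the floor on both arrays it was -0.78, and with no floor on the ratio it was -1.06.

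**Figure D2:**
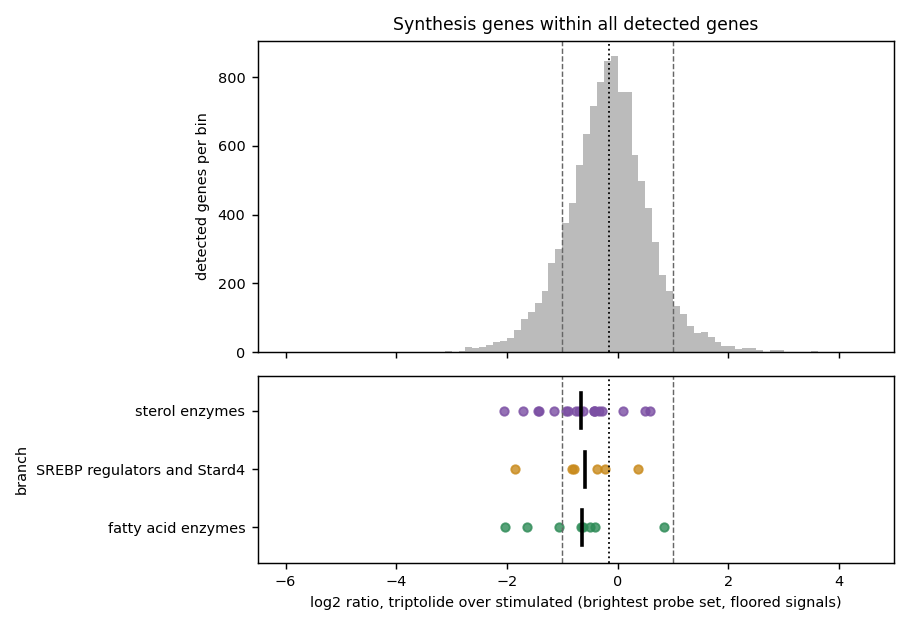
Upper panel, histogram of log2 ratios (triptolide over stimulated) of the 10883 detected genes. Lower panel, each member by branch with the branch median as a black bar; dashed lines mark 2-fold and the dotted line the median of all detected genes. The branch medians lie between -0.67 and -0.58, and that of all detected genes at -0.16. The fatty acid median falls between Fads1 and Fads2, whose ratios are bounds set by the floor.

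Technical precision was judged from genes with 2 or more probe sets measured above background in both samples. Over 3733 such genes the SD was 0.49 per probe set (log2), so a difference between a pair of probe sets has an SD of 0.69. Among 16 members with such a pair, the brightest probe sets pointed the same way in 13 (81.2%), against 72.0% of all 3733 genes. Of the 4 members whose brighter probe set was at least 2-fold lower, 3 had a second one that was too. Over all genes with such a pair this held for 242 of 464. This spread covers probes and transcript variants, not cultures or animals.

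**Figure D3:**
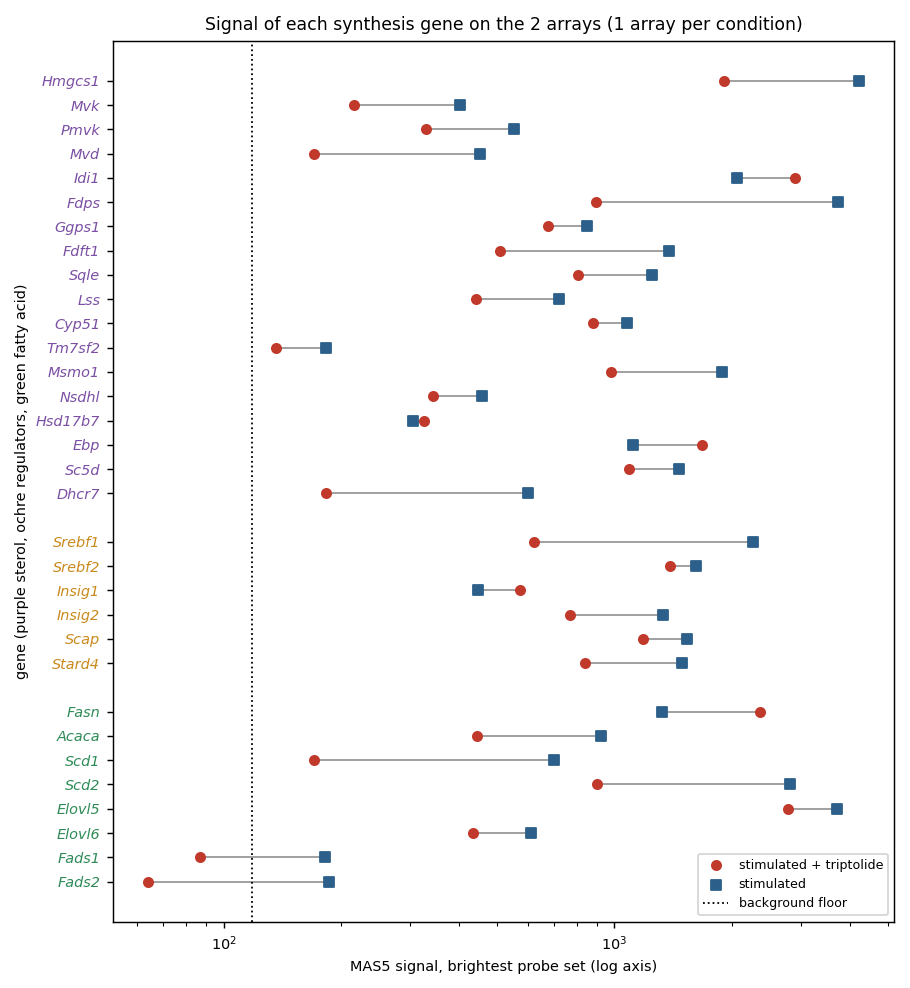
MAS5 signal (x axis, log scale) of the brightest probe set of each member, with triptolide (red circles) and without (blue squares). The dotted line is the background floor of 118. Idi1, Hsd17b7, Ebp, Insig1 and Fasn are the 5 genes whose red circle lies to the right of the blue square.

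In the mevalonate steps 3 of 7 genes were at least 2-fold lower, Hmgcs1, Mvd and Fdps, against 12.3% of all detected genes. Hmgcs1, which condenses acetyl-CoA with acetoacetyl-CoA, had a signal of 1907 with triptolide and 4222 without (2.21-fold lower). Log2 ratios of the other 3 probe sets measured in both samples were -1.50, -1.12 and -1.08, so all 4 lay past 2-fold. These 4 are annotated to the same source sequence. The brightest is of the _x_at type, which may pick up other transcripts. The remaining Hmgcs1 probe set was dim, at 22.2 with triptolide and 150 without. After centring both arrays on their median, the log2 ratio of Hmgcs1 was -0.92, short of 2-fold.

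The mevalonate kinase gene Mvk had a signal of 216 with triptolide and 402 without, a log2 ratio of -0.90, and its second probe set had -0.38. Pmvk, the phosphomevalonate kinase gene, had 330 with triptolide and 553 without (-0.75). Both were lower by less than 2-fold. Mvd, whose product removes carbon dioxide to give isopentenyl diphosphate, had 170 with triptolide and 454 without, 2.67-fold lower on a probe set of the shared type (_s_at), which may pick up other transcripts. On its other probe set Mvd had 174 with triptolide and 310 without, a log2 ratio of -0.83.

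Idi1 went against its neighbours in the pathway. This isomerase, which converts isopentenyl to dimethylallyl diphosphate, had 2906 with triptolide and 2061 without (0.50 on the log2 scale), and 1058 with triptolide against 586 without on its second probe set (0.85). Both probe sets were higher with triptolide. Fdps, the synthase that builds farnesyl diphosphate from these units, had the lowest ratio of all members, with 897 with triptolide and 3731 without (4.16-fold lower). Only 1.19% of detected genes had a ratio at or below that of Fdps. Its second probe set was under the floor on both arrays. Between Idi1 and Fdps the log2 ratios differed by 2.55 or more on every pair of detected probe sets, which is beyond the SD of 0.69. Ggps1, which extends farnesyl to geranylgeranyl diphosphate for protein prenylation, had 676 with triptolide and 850 without, with log2 ratios from -0.44 to -0.33 over 4 probe sets.

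Of the genes that take farnesyl diphosphate to lanosterol, all 3 had ratios below 0, against 60.2% of all detected genes. Only Fdft1 was at least 2-fold lower, against 12.3% of all detected genes. Fdft1, squalene synthase and the first enzyme committed to sterols, had 508 with triptolide and 1380 without (2.71-fold lower). That probe set is also of the _x_at type, which may pick up other transcripts. On its other probe set Fdft1 had 375 with triptolide and 1782 without, 4.75-fold lower. The squalene epoxidase gene Sqle, a second control point of the pathway, had 808 with triptolide and 1251 without, a log2 ratio of -0.63 on its single probe set. Lss, which closes the rings to form lanosterol, had 442 with triptolide and 720 without (-0.70), and its other detected probe set had -0.77.

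After lanosterol, 1 of 8 genes was at least 2-fold lower (12.5%), near the 12.3% of all detected genes. Dhcr7, a reductase of the final steps to cholesterol, had 183 with triptolide and 603 without (3.29-fold lower, with 2.47% of detected genes at or below it). Msmo1, which oxidises the methyl groups removed from lanosterol, had 981 with triptolide and 1880 without (-0.94). Its dimmer probe set was under the floor with triptolide, at 34.4 against 228 without. The demethylase gene Cyp51 had 882 with triptolide and 1079 without (-0.29), and -0.95 on its second probe set. The sterol reductase gene Tm7sf2, near the floor, had 136 with triptolide and 183 without. Nsdhl, a dehydrogenase of the demethylation steps, had 343 with triptolide and 458 without. These were all below 0 and within 2-fold.

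Ebp, Hsd17b7 and Sc5d, also of these late steps, did not share that direction on every probe set. Ebp, the isomerase that moves a ring double bond, had 1680 with triptolide and 1118 without, a log2 ratio of 0.59 on its single probe set. Ebp and Dhcr7 thus differed by 2.31 on the log2 scale. Hsd17b7, the ketoreductase of sterol demethylation, had 326 with triptolide and 305 without on its brightest probe set (0.09). Its other detected probe sets pointed down, at -0.20 and, with the triptolide signal under the floor, at least 1.57-fold lower. Sc5d, a sterol desaturase, had 1089 with triptolide and 1465 without (-0.43), while its dimmer probe set had 0.47. No direction is given for Hsd17b7 and Sc5d.

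**Figure D4:**
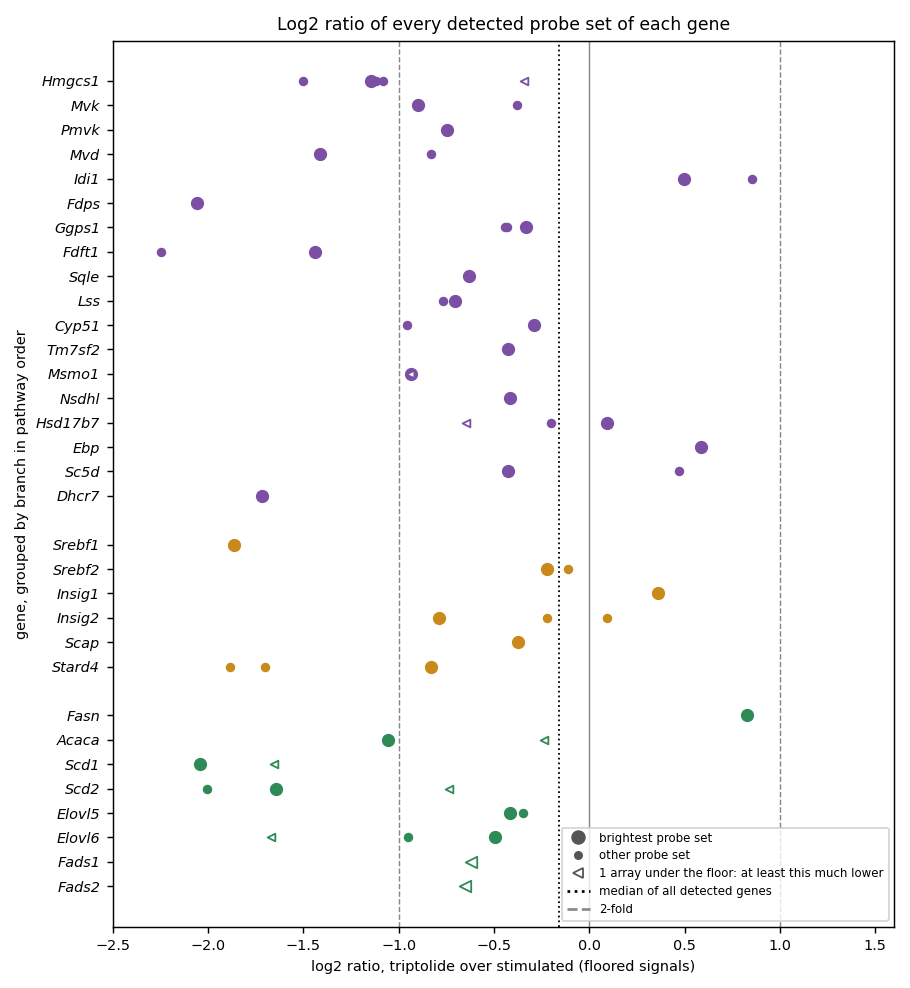
Log2 ratio (x axis, triptolide over stimulated) of each detected probe set, with genes in pathway order from sterol enzymes (purple) through regulators (ochre) to fatty acid enzymes (green). Large dots are the brightest probe set of a gene, small dots the others, and open triangles mark bounds. Fdps, Scd1 and Srebf1 lie furthest left on their brightest probe sets, at -2.06, -2.04 and -1.86.

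The genes of the SREBP system itself were uneven. Srebf1, the gene for SREBP1, which is known mainly for driving fatty acid genes, had 622 with triptolide and 2262 without (3.64-fold lower). Srebf2, the gene for SREBP2, which is known mainly for driving sterol genes, had 1384 with triptolide and 1615 without, log2 ratios of -0.22 and -0.11 on its 2 probe sets. The log2 ratio of Srebf1 was lower than that of Srebf2 by at least 1.64 on both pairs of probe sets, against the SD of 0.69. Srebf1 rests on a single probe set of the _a_at type, which covers several transcripts of the gene, so its transcript forms were not told apart.

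Scap, the escort of the SREBPs, had 1182 with triptolide and 1533 without (-0.38). Insig1, a retention protein whose gene is itself an SREBP target, had 574 with triptolide and 448 without (0.36). Insig2, its relative, had 770 with triptolide and 1328 without (-0.79), but its other probe sets had -0.22 and 0.09. The difference between Insig1 and Insig2 therefore ranged from 0.27 to 1.15 over the probe sets, so its lower end was within the SD of 0.69.

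Stard4, a cytosolic sterol carrier known as an SREBP target, was lower on all 3 probe sets. Its brightest had 839 with triptolide and 1493 without (-0.83). The other 2 had 581 with triptolide against 2145 without, and 554 with triptolide against 1800 without, 3.69-fold and 3.25-fold lower. Stard4 was counted as within 2-fold because its brightest probe set was.

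In fatty acid synthesis 3 of 8 genes were at least 2-fold lower, Scd1, Scd2 and Acaca, against 12.3% of all detected genes. Scd1, a desaturase that places the first double bond in saturated fatty acids, had 170 with triptolide and 699 without (4.11-fold lower). Its second probe set was under the floor with triptolide, at 7.4 against 373 without. Scd2, the closely related second desaturase, had 901 with triptolide and 2815 without (3.12-fold lower), and 276 with triptolide against 1107 without on the next probe set (4.02-fold lower). The log2 ratios of Scd1 and Scd2 differed by -0.40 on the brightest probe sets, under the SD of 0.69. The next Scd2 probe set, measured on both arrays, had -2.01, beside -2.04 for the brightest of Scd1. The remaining probe set of each gene was under the floor with triptolide and gives no exact difference.

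Acaca and Fasn, the enzymes that make malonyl-CoA and build palmitate from it, went opposite ways. Acaca had 444 with triptolide and 925 without (2.08-fold lower), close to the 2-fold line, and after quantile normalization its log2 ratio was -0.85. Its second probe set was dim, at 31.2 with triptolide and 140 without. Fasn had 2358 with triptolide and 1327 without, a log2 ratio of 0.83, the highest of all members. With the other 3 scalings Fasn lay just past 2-fold, at most 1.06 on the log2 scale. The log2 ratio of Fasn was higher than that of Acaca by 1.89 on the probe sets measured on both arrays, and a scaling factor common to all genes cancels in this difference. Against the dim Acaca probe set, whose ratio is a bound, no exact difference can be given.

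In elongation and further desaturation, the brightest probe sets of both elongase genes were within 2-fold, and both desaturase genes had bounds only. Elovl5, which elongates polyunsaturated chains, had 2785 with triptolide and 3713 without, with -0.41 and -0.35 on its 2 probe sets. Elovl6, which elongates palmitate to stearate, had 435 with triptolide and 613 without (-0.50). Its other probe sets had -0.95 and, under the floor with triptolide, 84 against 377 without (at least 3.18-fold lower). The desaturase genes Fads1 and Fads2, which make highly unsaturated fatty acids, had 87 and 64.2 with triptolide, and 182 and 186 without. Their folds are bounds of at least 1.54 and 1.57, and both were too dim for a 2-fold call. They stay in the counts as genes not past 2-fold. Over the 6 fatty acid genes above the floor on both arrays, 3 were at least 2-fold lower, against 13% of all genes under that filter.

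Neighbouring lipid pathways were compared by lists of related genes. Enzymes that use isoprenoids for prenylation, dolichol or ubiquinone had a median log2 ratio of -0.59. Of 12 detected genes, 4 were at least 2-fold lower and 2 higher, against 12.3% and 5.6% of all detected genes. Among the lower ones Dhdds was at -1.02 and had 0.80 on another probe set. Lowest were both chains of the Rab geranylgeranyl transferase, Rabggtb (765 with triptolide, 4795 without) and Rabggta (366 with triptolide, 1102 without). Highest were the prenyl protease gene Zmpste24 (2506 with triptolide, 1010 without) and Pdss2 (491 with triptolide, 244 without), a subunit of the enzyme that makes the ubiquinone side chain. Of 2 other sterol genes, Erg28 had -0.62 and the sterol reductase gene Lbr -0.23.

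SREBP processing and turnover genes had a median of -0.31. Of 9 detected, 1 was at least 2-fold lower (11.1%, against 12.3% of all detected genes) and 2 higher (against 5.6%). Lowest were the site-two protease gene Mbtps2, which makes the second of the cuts that free SREBPs (308 with triptolide, 885 without), and the ubiquitin ligase gene Rnf139 (-0.70, with 0.28 on its other probe set). Highest were Faf2 (717 with triptolide, 299 without) and Erlin1 (420 with triptolide, 204 without), both of the degradation machinery of the endoplasmic reticulum.

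Genes of sterol efflux, storage and trafficking had a median of -0.29. Of 13 detected, 2 were at least 2-fold lower (15.4%, against 12.3% of all detected genes) and 1 higher (against 5.6%). The sterol transfer gene Gramd1a had 1083 with triptolide and 2571 without, and the exporter gene Abcg1 94.3 with triptolide and 247 without. Mylip, which degrades lipoprotein receptors, had 525 with triptolide and 183 without (2.88-fold higher), and Gramd1c, under the floor without triptolide, was at least 1.43-fold higher.

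Acetyl-CoA supply and the other fatty acid steps had a median of -0.14, near that of all genes. Of 19 detected, 1 was at least 2-fold lower (5.26%, against 12.3% of all detected genes) and 1 higher (against 5.6%). Acss2, which makes acetyl-CoA from acetate, had 110 with triptolide and 326 without (at least 2.75-fold lower), and the dehydratase gene Hacd3 had -0.91. The elongation reductase gene Hsd17b12 had 6735 with triptolide and 2896 without (2.33-fold higher), and the sphingolipid desaturase gene Degs1 had 0.52. Acly, the citrate lyase that feeds both pathways, had 5458 with triptolide and 5771 without (-0.08).

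Glycerolipid synthesis had a median of -0.13, with 2 of 16 at least 2-fold lower (12.5%, against 12.3% of all detected genes; Agpat4 and Agpat3, at -1.31 and -1.26) and 2 higher (against 5.6% of all detected genes; Chka and Gpat4, at 2.56 and 1.03). The probe sets of Agpat3, Chka and Gpat4 disagreed, reaching 0.19, 0.22 and 0.17. Fatty acid oxidation had a median of 0.19. Of its 15 detected genes 3 were at least 2-fold lower (20%, against 12.3% of all detected genes). None of its genes was at least 2-fold higher (against 5.6%). Its lowest genes were Hadh (994 with triptolide, 4341 without, a log2 ratio of -2.13, with other probe sets up to -0.43) and Acaa2 (522 with triptolide, 1204 without), and its highest Cpt2 and Hadhb at 0.97 and 0.92, with -0.49 on another Hadhb probe set. Of these 7 neighbouring lists, the isoprenoid list had the lowest median. At -0.59 it lay within the range of the 3 synthesis branches (-0.67 to -0.58).

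**Figure D5:**
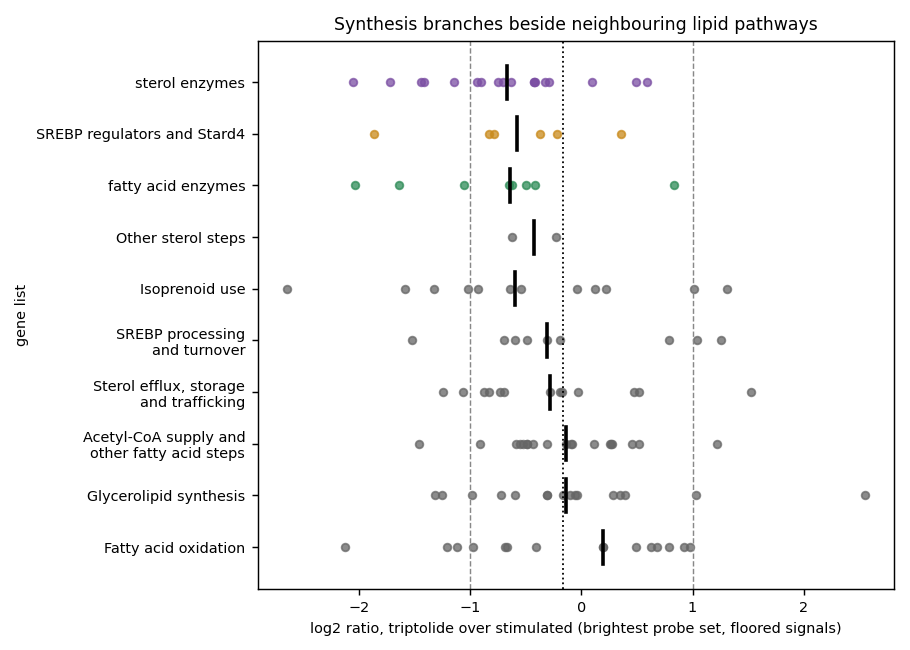
Log2 ratios (x axis, triptolide over stimulated) of detected genes in the 3 synthesis branches and 7 neighbouring lipid lists, with list medians as black bars. The dotted line is the median of all detected genes, at -0.16. The 3 synthesis branches have medians from -0.67 to -0.58, isoprenoid use has -0.59 and fatty acid oxidation has 0.19. The fatty acid enzyme median falls between Fads1 and Fads2, whose ratios are bounds set by the floor.

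Markers of other cells were compared beside these results. The 6 detected B cell markers had summed signals of 3219 with triptolide and 5091 without. Most of both sums came from Ighm (1805 with triptolide, 3482 without), whose probe sets ranged from -2.60 to 0.53 on the log2 scale. Of the 6, 2 were at least 2-fold lower (33.3%, against 12.3% of all detected genes). Cd79a was higher, at 674 with triptolide and 349 without. Pax5 was under the floor on both arrays. The 5 detected myeloid markers had sums of 1143 with triptolide and 1041 without, with Mpeg1 at least 2.88-fold lower and Lyz2 at least 2.19-fold higher. Itgam, Cd14 and Fcgr3 were under the floor on both. The 10 detected T cell markers had sums of 43883 with triptolide and 63226 without. Of these 10, 3 were at least 2-fold lower (30%, against 12.3% of all detected genes). Of 6 hepatocyte and adipocyte markers, 2 passed the floor with triptolide, Alb (176 with triptolide, 108 without) and Adipoq (174 with triptolide, 42.1 without). The part of these shifts in the lipid gene results was not tested.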

How the data were processed

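Biotin-labelled total RNA was hybridised to 1 Affymetrix array per group. For every probe set the authors deposited a linear signal intensity, which came from MAS5 according to the submitters' processing notes. The sources used here give neither its version nor its scaling. With 2% trimmed at each end, the first 100 probe sets averaged 2000.0 in both samples and all probe sets 340 with triptolide and 383 without.

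Of 45037 probe sets, 34945 had 1 gene symbol, 932 several and 9160 none in the platform annotation, and the first kind was used. Symbols were updated through Entrez numbers for 34741 of them (RefSeq, GRCm38.p6). The brightest probe set by mean log2 signal stood for its gene. The floor was the higher of both arrays' 95th percentiles over 85 chemosensory receptor probe sets (118 with triptolide and 108 without), and signals under it were raised to it before ratios were taken. Folds with 1 array under it are given as bounds. All members were to be named, and of each neighbouring list the 2 highest and 2 lowest detected genes. Acly and Dhdds were named after their values were seen. The members and lists were chosen with earlier results of these data known.

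With 1 array per group no test was run. Protein identities between members were not analysed here. The number of arrays limits the precision. The calculation was tested on simulated data, with planted effects well past 2-fold in genes well above the floor. Calls near the floor or near 2-fold were not covered by it. Alternatives were 3 other scalings, 2 other floors, no floor, a pseudocount of 50, 2 other choices of probe sets and 2 other filters. Python 3.11.15, numpy 2.4.6, pandas 2.3.3 and matplotlib 3.10.9 were used.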

Additional observations from a re-analysis of the deposited data

How the results depend on the processing

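No paired analysis was possible because each group has 1 array. Under 11 alternatives each, the sterol enzymes at least 2-fold lower numbered 4 or 5, against 7.39% to 17.6% of all genes. Scaling moved the medians with those of all genes, which were 0.04 after centring both arrays on their median, 0.00 (0.0045) after quantile normalization and -0.01 after equal trimmed means. The sterol median was then -0.44, -0.47 and -0.49, and the fatty acid median -0.41, -0.44 and -0.46. In each of these 3 scalings 1 fatty acid gene passed 2-fold upward, Fasn. Genes at least 2-fold lower then made up 7.82%, 8.33% and 8.91% of all detected genes, and the higher ones 8.48%, 8.05% and 7.62%, against 12.3% and 5.6% without rescaling. For the regulators with Stard4 the median was -0.35 after centring. Without the probe set types that can cover several transcripts the sterol median was -0.43 and that of the regulators -0.38. Then 0 regulators were 2-fold lower (against 12.2% of all genes), because Srebf1 has no other probe set. When a gene took the median of its detected probe sets, the regulators had -0.30. Of them 2 were then at least 2-fold lower, against 10.4% of all genes. The regulators also had 2 after quantile normalization (against 8.33% of all genes), where another Stard4 probe set ranked brightest. With the floor at the 75th percentile, or with none, 5 fatty acid genes were at least 2-fold lower, since Fads1 and Fads2 were no longer bounded. Of all genes 13.1% were 2-fold lower and 6.94% higher with that floor, and 17.6% and 9.56% with none. The fatty acid median was -1.06 in both cases, and with a pseudocount it was -0.87. Fdps, Fdft1, Dhcr7, Scd1 and Scd2 were at least 2-fold lower in 11 of 11 alternatives and Srebf1 in 10 of 10, but Hmgcs1 and Mvd in 9 and Acaca in 6. None of the 9 changed sign. Ratios of dim genes depend on the floor: with it doubled, Scd1 was at -1.56, Dhcr7 at -1.35 and Mvd at -0.94.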
